A study of Rattus norvegicus with 24 samples.

Results

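The renin-angiotensin system was followed through 8 genes in the kidneys of rats fed lithium, a mood stabiliser that damages the kidney over long use. The members were the clusters that the platform annotation maps to Agt, Ace, Mme, Enpep, Agtr1a, Agtr1b, Agtr2 and Atp6ap2, 1 cluster each, out of 14324 genes named on the array. They were chosen as a pathway, with earlier results of these data known. The samples came from 12 male Wistar rats. The 6 lithium-treated rats ate 40 mmol lithium per kg of food for 7 days and then 60 mmol per kg, over 6 months in all, while the growth notes of the arrays name the higher dose alone. The 6 control rats ate a standard diet for the same 6 months. The lithium-treated rats also had a salt block and the labels name none for the controls, so the effects of lithium and of the salt block cannot be told apart. Cortex and medulla of each rat were hybridised to an Affymetrix rat array each, 24 arrays in all. The authors name the arrays as gene arrays in one place and as exon arrays in another.

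Angiotensinogen is cut to angiotensin I, and angiotensin-converting enzyme turns this into angiotensin II. The peptide acts on the AT1 receptor to constrict vessels, drive aldosterone release and promote sodium uptake in the tubule, and AT2 receptors often oppose it. Peptidases of the brush border and interstitium, neprilysin and aminopeptidase A among them, shorten these peptides further, and the kidney makes most of the components itself.

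The values are log2 signal intensities, in which 1 unit is a doubling. The array medians were 5.75 to 5.83 in cortex and 6.12 to 6.22 in medulla, so the tissues appear to have been normalized separately. Member levels were compared within a tissue only, and levels were set across the tissues only to check the labels. The authors had removed the effect of the scan date from the values. The cortex array of lithium-treated animal 17 held no value of its own, since it differed from the mean of the other 5 lithium cortex arrays by at most 8e-05, and it was left out, which gives n = 5 for lithium cortex and n = 6 elsewhere. For that check, proximal tubule genes were lower in medulla, the opposite way to the array medians. The mean of 20 proximal tubule genes was 9.81 to 10.5 in lithium cortex and 10.1 to 10.6 in control cortex, against 6.72 to 8.08 in lithium medulla and 7.25 to 8.93 in control medulla.

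A cluster was tested where it reached a log2 value of 6 on at least 4 of 12 arrays. In cortex 4 of the 8 members did so (Mme, Enpep, Agtr1a and Atp6ap2), and in medulla 7 did so, all but Agtr2. No member passed the threshold of an adjusted p of 0.05 (limma with the scan groups in the fit, Benjamini-Hochberg over all clusters). In cortex 0 of 4 members passed, where 0.574% of 13766 clusters did, and in medulla 0 of 7, where 1.19% of 16025 did. Before adjustment, 0 of 4 members had a p under 0.05 in cortex, where 7.54% of all clusters had one. In medulla 2 of 7 members had one, Enpep and Atp6ap2, where 19.6% of all clusters had one. Values in bulk tissue cannot tell fewer cells of a type from less RNA per cell.

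**Figure D1:**
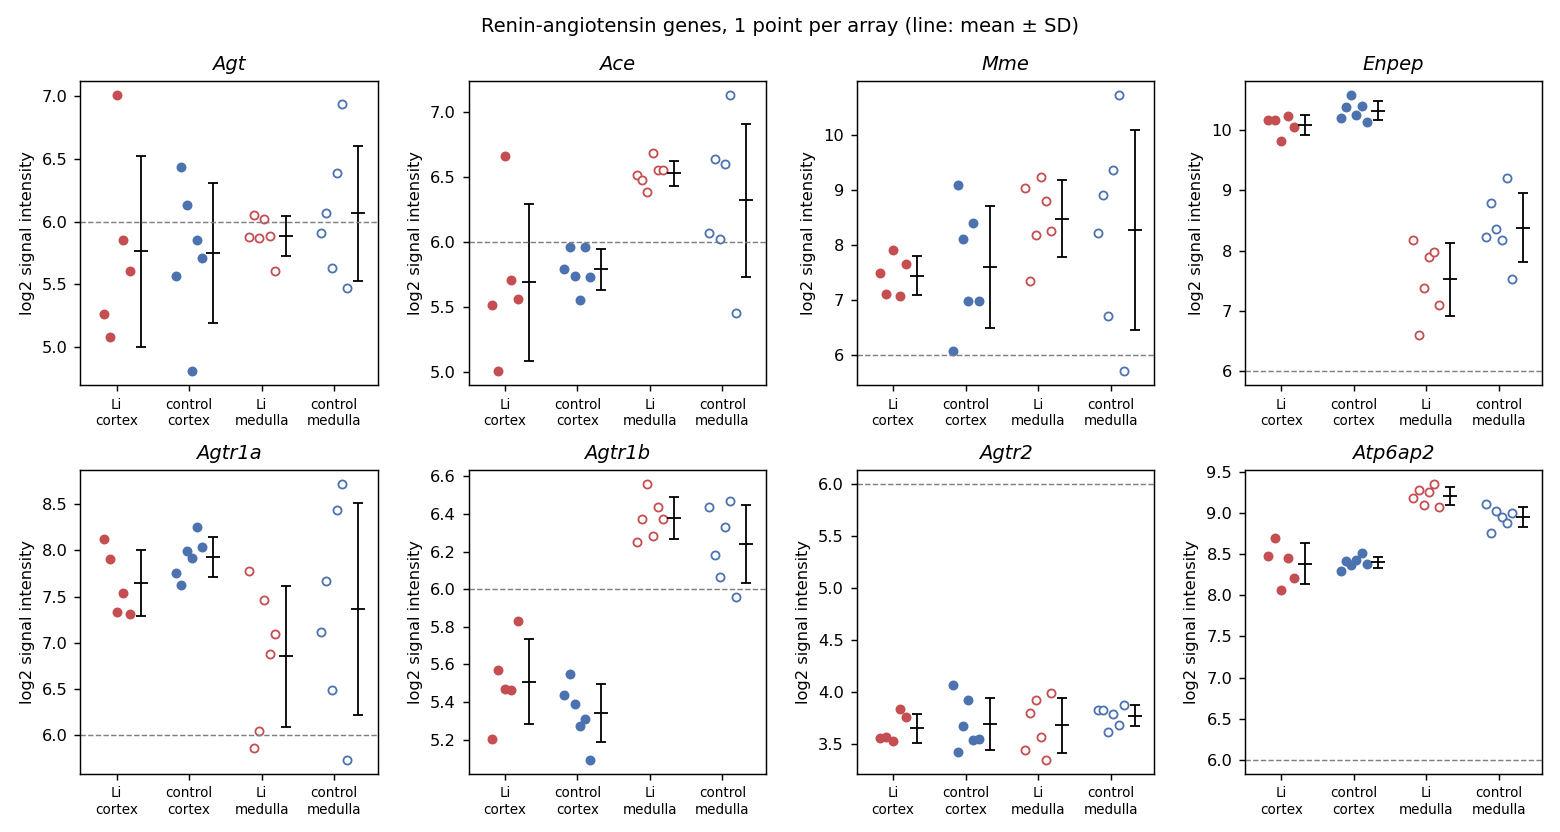
Log2 signal intensity (y axis) of the 8 members on each array, in lithium cortex, control cortex, lithium medulla and control medulla from left to right; red is lithium, blue is control, filled points are cortex, open points are medulla, black bars are mean ± SD and the dashed line is the level of 6 used to keep a cluster. Enpep lay lower in lithium medulla (mean 7.52) than in control medulla (8.38), and Mme had its widest range in control medulla (5.71 to 10.7).

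Agt encodes angiotensinogen, the precursor of all angiotensin peptides. In medulla its lowest, median and highest values were 5.61, 5.88 and 6.05 in lithium-treated rats and 5.47, 5.99 and 6.94 in control rats. All lithium arrays lay inside the range of the controls, with a log2 fold change of -0.18 (SE 0.22, 95% interval -0.67 to 0.31, limma adjusted p = 0.678). In cortex Agt reached 6 on 3 of 12 arrays and was not tested. It ran from 5.08 to 7.01 in lithium cortex and from 4.81 to 6.43 in control cortex, with the highest value in lithium-treated animal 19.

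Ace encodes angiotensin-converting enzyme, which also breaks down bradykinin. In medulla it measured 6.38, 6.53 and 6.68 (lowest, median, highest) in lithium-treated rats and 5.45, 6.34 and 7.13 in control rats. The lithium arrays sat close together within the wider range of the controls, with a log2 fold change of 0.21 (SE 0.24, 95% interval -0.31 to 0.73, limma adjusted p = 0.652). In cortex Ace reached 6 on 1 of 12 arrays, again that of lithium-treated animal 19 at 6.66, and was otherwise between 5.0 and 5.96.

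Lithium cortex of animal 19 stood at the end of the range for several members. It was the highest lithium cortex array for Agt, Ace and Mme and the lowest for Enpep and Atp6ap2. On that array the mean of the fibroblast and matrix list was 9.38, that of the smooth muscle, mesangium and pericyte list 8.15 and that of the macrophage list 8.23, the highest of the lithium cortex arrays, and its proximal tubule mean of 9.81 was the lowest. The part of these cell types in its member values was not tested.

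Mme encodes neprilysin, a metallopeptidase of the brush border that cuts angiotensin I, natriuretic peptides and kinins. In medulla its lowest, median and highest values were 7.35, 8.54 and 9.24 in lithium-treated rats and 5.71, 8.56 and 10.7 in control rats. The medians were close and the controls spanned the lithium arrays on both sides. The log2 fold change was 0.21 with a wide 95% interval of -1.42 to 1.84 (SE 0.74, limma adjusted p = 0.902), an interval that holds changes of 2-fold either way. In cortex Mme was 7.49, 7.12, 7.91, 7.08 and 7.66 in lithium-treated animals 6, 18, 19, 21 and 22, and 6.08 to 9.10 in control animals with a median of 7.55. The lithium values again lay within those of the controls (log2 fold change -0.16, SE 0.47, 95% interval -1.19 to 0.88, limma adjusted p = 0.954). Of the 6 other neprilysin family genes listed, only Ece1 (endothelin-converting enzyme 1) was tested, at 0.15 in cortex (limma adjusted p = 0.883) and 0.17 in medulla (limma adjusted p = 0.555).

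Within medulla the spread itself was narrower in the lithium-treated rats for these 3 genes, and not for them alone. The SD of Agtr1a was 0.763 in lithium medulla and 1.15 in control medulla, and that of Agtr1b 0.112 and 0.205. Atp6ap2 was close (0.111 and 0.120), and Enpep went the other way (0.602 and 0.573). For Agt the SD was 0.157 in lithium medulla and 0.537 in control medulla. For Ace it was 0.0988 in lithium medulla and 0.591 in control medulla, and for Mme 0.695 in lithium medulla and 1.82 in control medulla. No test of the spread was run, and the share of all clusters with a narrower spread was not counted. Control medulla animals 29 and 30 stood at the ends. Animal 29 was the highest and animal 30 the lowest control for Agt, Ace, Mme, Enpep, Agtr1a and Agtr1b alike. The proximal tubule mean was also highest in animal 29 and lowest in animal 30 (8.93 and 7.25), as were the intercalated cell mean (9.32 and 6.52) and the macrophage mean (8.13 and 6.56) among the control arrays, and their part in the member values was not tested.

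Enpep encodes aminopeptidase A, which removes the first residue of angiotensin II and so makes angiotensin III. It lay lower in the medulla of lithium-treated rats, at 6.60, 7.63 and 8.17 (lowest, median, highest), against 7.52, 8.30 and 9.20 in control rats. On 3 of 6 lithium arrays it was below every control, and the other 3 overlapped them. The means were 7.52 ± 0.602 in lithium medulla and 8.38 ± 0.573 in control medulla (SD, n = 6 each). The log2 fold change was -0.86 (SE 0.32, 95% interval -1.56 to -0.15), a ratio of 0.552 between lithium-treated and control rats. Its limma p of 0.0217 did not pass after adjustment (adjusted p = 0.177), while an exact 2-sided permutation of the diets within scan groups, for this gene alone, gave p = 0.0463. The difference ran the same way in each of the 3 scan groups, at -1.12, -0.63 and -0.82. That was also so in medulla for Agt, Ace, Agtr1a, Agtr1b and Atp6ap2. Among the tested members only Mme changed direction there (-0.36, 0.67 and 0.31).

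In cortex Enpep was 10.16, 10.16, 9.82, 10.23 and 10.05 in lithium-treated animals 6, 18, 19, 21 and 22, and 10.1 to 10.6 with a median of 10.31 in control rats. On 2 of 5 lithium arrays it was below every control. The log2 fold change was -0.24 (SE 0.11, 95% interval -0.48 to 0.01, limma adjusted p = 0.680, exact permutation p = 0.0648 with n = 5 and n = 6), and in the scan groups it ran between -0.43 and -0.12. The lithium effect on Enpep was 0.62 lower in medulla than in cortex, a difference of -0.62 with a 95% interval of -1.42 to 0.17 that did not pass (limma interaction, adjusted p = 0.505).

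The proximal tubule list is set beside Enpep. All 20 of its genes were tested in medulla, with a median log2 fold change of -0.65 where the median of all clusters was -0.01. None passed after adjustment. An unadjusted p under 0.05 was found for 8 of 20, all 8 below 0, where 19.6% of all medulla clusters had one, and 19 of 20 were below 0. The list mean was 6.72 to 8.08 in lithium medulla and 7.25 to 8.93 in control medulla, with lithium-treated animal 17 lowest and control animal 29 highest for both the list and Enpep. The 9 other hydrolases tested in medulla, not all of them of the brush border, were all below 0. Their median was -0.64 and 0 passed. Among them were Dpp4 (dipeptidyl peptidase 4) at -0.72 and Mep1a (meprin A) at -0.85. In cortex the proximal tubule median was -0.05 and 0 of 20 passed. The part of proximal tubule content in the Enpep values was not tested.

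**Figure D2:**
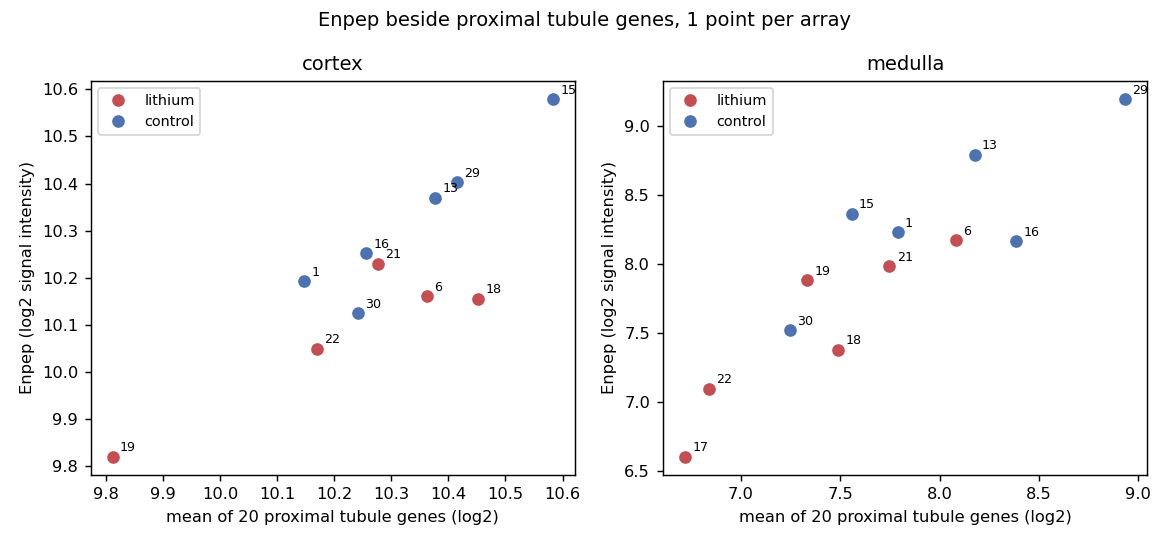
Enpep (y axis, log2 signal intensity) against the mean of 20 proximal tubule genes (x axis, log2) on each array of cortex (left) and medulla (right), with the animal numbers beside the points; red is lithium, blue is control. In medulla lithium-treated animal 17 had the lowest value on both axes and control animal 29 the highest.

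The genes whose cortical levels were most like Enpep, among 8296 named genes over 11 arrays, were Slc25a23, a mitochondrial ATP-Mg/Pi carrier (Pearson r = 0.940), Slc5a1, a sodium-glucose cotransporter (0.932), Anpep (0.931), Ptger1, a prostaglandin E receptor (0.919) and Haao, an enzyme of tryptophan breakdown (0.919). These were the top of a ranking and are given as a description.

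Agtr1a encodes the main AT1 receptor of the rat kidney. In medulla it measured 5.86, 6.99 and 7.78 (lowest, median, highest) in lithium-treated rats and 5.74, 7.40 and 8.72 in control rats. The ranges overlapped almost throughout, with a log2 fold change of -0.51 (SE 0.53, 95% interval -1.66 to 0.65, limma adjusted p = 0.618). In cortex it ran from 7.32 to 8.12 in lithium-treated rats with a median of 7.54, and from 7.63 to 8.25 in control rats with a median of 7.95. On 3 of 5 lithium arrays it lay below every control (log2 fold change -0.28, SE 0.17, 95% interval -0.66 to 0.09, limma adjusted p = 0.756). The difference was 0.43 in the scan group with 1 lithium array and -0.33 and -0.71 in the other two.

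Agtr1b encodes the second rodent AT1 receptor, close in sequence to Agtr1a, so that probes of one may read the other. How far they do was not tested. In medulla it was 6.25, 6.37 and 6.56 (lowest, median, highest) in lithium-treated rats and 5.96, 6.26 and 6.47 in control rats. A single lithium array lay above every control (log2 fold change 0.14, SE 0.11, 95% interval -0.10 to 0.39, limma adjusted p = 0.509). In cortex Agtr1b reached 6 on 0 of 12 arrays, at 5.21 to 5.83 in lithium-treated rats and 5.09 to 5.55 in control rats.

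Agtr2 encodes the AT2 receptor, prominent in the fetal kidney. It was low in all 4 groups and tested in neither tissue. It measured 3.52 to 3.84 in lithium cortex, 3.42 to 4.06 in control cortex, 3.34 to 3.99 in lithium medulla and 3.61 to 3.87 in control medulla.

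Atp6ap2 encodes the prorenin receptor, which binds prorenin and is also an accessory subunit of the vacuolar proton pump. In medulla it was slightly higher in the lithium-treated rats, at 9.07, 9.21 and 9.36 (lowest, median, highest), against 8.76, 8.98 and 9.10 in control rats. On 4 of 6 lithium arrays it was above every control. The means were 9.20 ± 0.111 in lithium medulla and 8.95 ± 0.120 in control medulla (SD, n = 6 each). The log2 fold change was 0.25 (SE 0.092, 95% interval 0.05 to 0.45), a ratio of 1.19, with a limma p of 0.0190 that did not pass after adjustment (adjusted p = 0.167). The exact 2-sided permutation within scan groups, for this gene alone, gave p = 0.00926, the smallest its 216 exchanges allow. The differences in the 3 scan groups were 0.30, 0.19 and 0.27.

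In cortex Atp6ap2 was 8.48, 8.70, 8.07, 8.46 and 8.21 in lithium-treated animals 6, 18, 19, 21 and 22, and 8.29 to 8.51 in control rats. The lithium arrays fell on both sides of the controls (log2 fold change -0.02, SE 0.12, 95% interval -0.27 to 0.24, limma adjusted p = 0.982). The effect in medulla minus that in cortex was 0.27 (95% interval -0.04 to 0.57), which did not pass (limma interaction, adjusted p = 0.47). Over all clusters 0.0915% of 16388 passed in this comparison, and 0 of 7 members did. Before adjustment 0 of 7 members had a p under 0.05 there, where 12.2% of all clusters had one.

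Of the subunits of the proton pump that most cells use, 14 were tested in medulla and 0 passed, with a median log2 fold change of 0.05. The intercalated cell list, which holds kidney-specific pump subunits, held calls, where 1.19% of all medulla clusters passed. Of its 9 genes tested in medulla 3 passed and all 3 were higher: Oxgr1, the 2-oxoglutarate receptor (2.13, adjusted p = 0.0411), Slc4a9, an anion exchanger (1.99, adjusted p = 0.0156) and the pump subunit Atp6v1g3 (1.10, adjusted p = 0.0296, all limma). Without single animals their adjusted p reached 0.115, 0.0555 and 0.0951. The list mean was 9.37 to 10.4 in lithium medulla and 6.52 to 9.32 in control medulla, so the ends of the ranges lay close together. The part of intercalated cells in the Atp6ap2 values was not tested. The genes most like Atp6ap2 over the 12 medulla arrays, among 9447, were Srpk2, a splicing kinase (r = 0.955), B2m, beta-2-microglobulin (0.955), Birc3, an inhibitor of apoptosis (0.932), A4galt, a glycosyltransferase (0.922) and Tpm1, a tropomyosin (0.918).

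**Figure D3:**
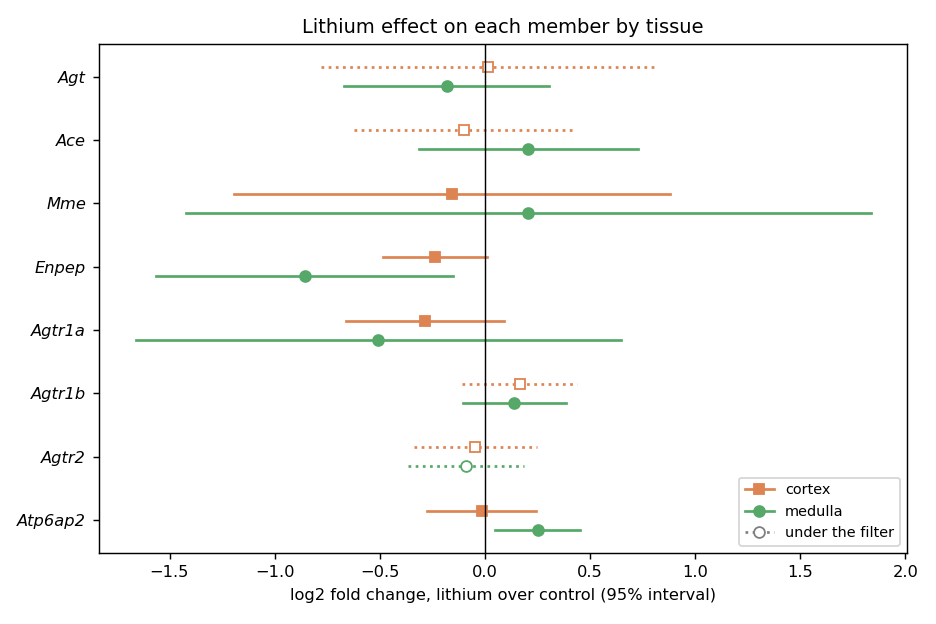
Log2 fold change of lithium over control (x axis) for each member with its 95% interval, in cortex (orange squares) and medulla (green circles); open markers with dotted lines are members under the filter, from a fit of all clusters. The intervals of Enpep and Atp6ap2 in medulla lie on 1 side of 0 before adjustment, and the others cross it.

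Several members varied together from rat to rat in medulla. All 27 pairs of tested members (6 in cortex, 21 in medulla) were correlated over arrays, with p-values from 100000 permutations adjusted over the 27. In medulla 7 of 21 pairs passed by Pearson and 0 of 6 in cortex. The lowest r among the 7 was 0.715, and 8.15% of all pairs of the 9447 named genes tested in medulla reached it in either direction. The means of the segment lists also ranged widely over these arrays, at 6.72 to 8.08 in lithium medulla and 7.25 to 8.93 in control medulla for proximal tubule and 6.96 to 9.94 in lithium medulla and 7.83 to 10.6 in control medulla for thick ascending limb, and their part in the pairs was not tested. Ace and Mme had r = 0.913 (permutation p = 0.00021, adjusted p = 0.00283) and rho = 0.902 (permutation p = 0.00011, adjusted p = 0.00148). Mme and Agtr1a had r = 0.873 (permutation p = 0.00016, adjusted p = 0.00283) and rho = 0.930 (permutation p = 3e-05, adjusted p = 0.00081). Both were lower but still high without animals 29 and 30, the arrays farthest from the median of the first gene, at r = 0.730 for Ace and Mme and 0.782 for Mme and Agtr1a. Within the diets r was 0.615 in lithium medulla and 0.967 in control medulla for Ace and Mme, and 0.866 in lithium medulla and 0.981 in control medulla for Mme and Agtr1a.

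The other 5 pairs passed by Pearson and not by rank. Agt and Mme had r = 0.813 (permutation adjusted p = 0.0154; rho = 0.713, adjusted p = 0.0610), yet r was -0.0397 in lithium medulla and 0.965 in control medulla. Agt and Ace had r = 0.775 (adjusted p = 0.0298 by permutation; rho = 0.734, adjusted p = 0.0587), with 0.103 in lithium medulla and 0.940 in control medulla. Agt and Agtr1a (r = 0.742), Ace and Agtr1a (0.715) and Enpep and Agtr1a (0.725) were 0.407, 0.428 and 0.492 without the 2 farthest arrays. Within the diets r was -0.236 in lithium medulla and 0.952 in control medulla for Agt and Agtr1a, 0.672 in lithium medulla and 0.957 in control medulla for Ace and Agtr1a, and 0.765 in lithium medulla and 0.749 in control medulla for Enpep and Agtr1a. A scan group held at most 4 arrays, too few for a value of its own, and the removal of scan date leaves fewer free values than arrays, so these p-values may be too small.

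**Figure D4:**
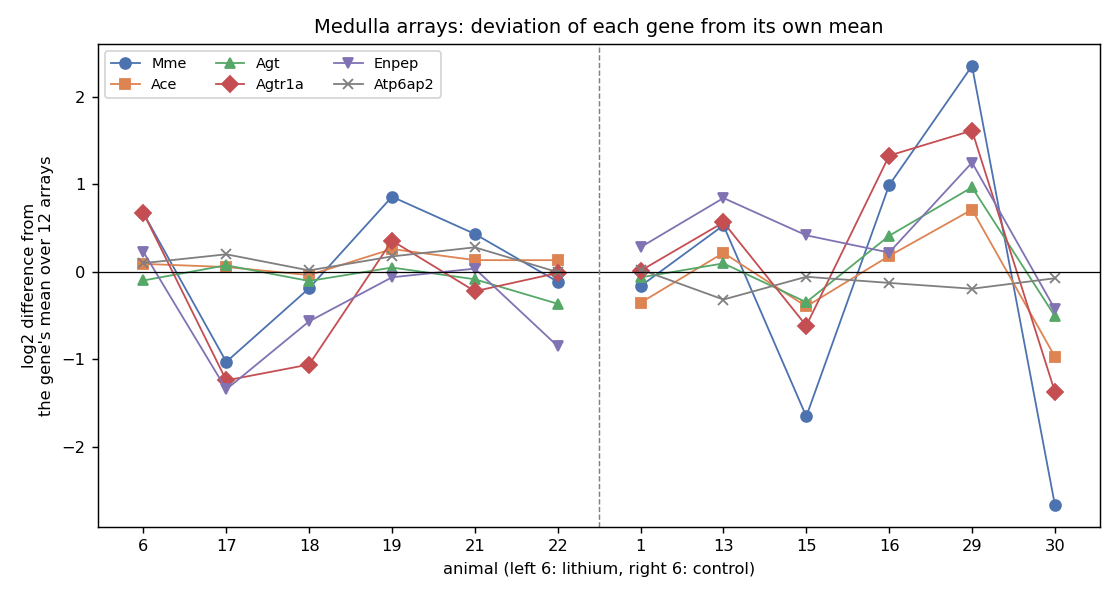
Difference of each gene from its own mean over the 12 medulla arrays (y axis, log2) by animal (x axis), with the 6 lithium-treated rats left of the dashed line and the 6 control rats right of it; lines only join the points of a gene. Mme, Ace, Agt, Agtr1a and Enpep are all highest in control animal 29, and Atp6ap2 is not.

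The sequence before the start of Mme, Ace and Agtr1a is shown because these are the genes of the pairs that passed by both measures. The 250 bases before each start are from RefSeq, build GRCr8, 5′ to 3′ on the strand of the gene, with matches to the GC box (GGGCGG) and the TATA box (TATAAA) on either strand in capitals, overlapping matches included.
Mme, chr2:149872247-149872496, plus strand: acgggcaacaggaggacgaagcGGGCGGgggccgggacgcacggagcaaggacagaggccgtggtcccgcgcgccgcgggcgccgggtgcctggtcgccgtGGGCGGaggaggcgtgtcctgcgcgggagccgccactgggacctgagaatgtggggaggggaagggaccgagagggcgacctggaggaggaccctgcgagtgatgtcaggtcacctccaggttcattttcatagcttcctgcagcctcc
Ace, chr10:91409879-91410128, plus strand: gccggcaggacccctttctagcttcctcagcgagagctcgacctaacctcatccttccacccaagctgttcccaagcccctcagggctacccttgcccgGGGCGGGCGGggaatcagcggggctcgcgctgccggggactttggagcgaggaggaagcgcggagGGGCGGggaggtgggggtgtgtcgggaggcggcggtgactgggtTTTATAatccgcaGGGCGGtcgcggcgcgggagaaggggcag
Agtr1a, chr17:34435433-34435682, minus strand: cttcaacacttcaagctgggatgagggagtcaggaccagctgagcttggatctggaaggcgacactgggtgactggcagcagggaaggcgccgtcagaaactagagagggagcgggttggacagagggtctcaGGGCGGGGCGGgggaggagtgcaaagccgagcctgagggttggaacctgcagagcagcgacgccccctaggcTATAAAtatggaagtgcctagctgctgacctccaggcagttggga

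Mme held 2 GC boxes, Ace held 4 and Agtr1a held 2. Ace and Agtr1a also held 1 TATA box each and Mme held 0. Of the 7 members with a listed promoter, 4 held a GC box and 2 a TATA box, beside 30.5% and 12.9% of all 33469 promoters of this length. A match is a run of letters and no measured site.

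Beyond the 8 members, 20 further enzymes and receptors of the pathway were listed, of which 18 are named on the array. In cortex 13 were tested and in medulla 14, and 0 passed in either tissue. The median log2 fold change was -0.02 in cortex and -0.12 in medulla, where all clusters had 0.01 and -0.01. Mas1, the receptor of angiotensin-(1-7), passed the filter in neither tissue. Ctsd (cathepsin D, an aspartic protease of lysosomes) ran from 10.44 to 11.08 in lithium cortex and from 9.96 to 10.32 in control cortex, without overlap (as did 2.57% of cortex clusters), with a log2 fold change of 0.56 (limma adjusted p = 0.102). In medulla its log2 fold change was 0.55 (limma adjusted p = 0.123). Cltrn (collectrin, which carries amino acid transporters to the brush border) was at -1.10 in medulla (limma adjusted p = 0.230), at 5.25 to 7.64 in lithium-treated rats and 7.05 to 9.03 in control rats. Agtrap, which binds the AT1 receptor and dampens it, was at -0.27 in cortex (limma adjusted p = 0.606) and -0.08 in medulla (limma adjusted p = 0.678). Anpep, aminopeptidase N, which cuts angiotensin III, was at -0.33 in cortex (limma adjusted p = 0.547).

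Of 15 genes of renin control tested in medulla, 1 passed, where 1.19% of all medulla clusters did. Ptgs2 (cyclooxygenase 2, whose products drive renin release) was lower, at 6.51 to 7.52 in lithium medulla and 7.55 to 8.31 in control medulla, without overlap (log2 fold change -0.94, SE 0.19, limma adjusted p = 0.0395, and 0.0239 to 0.112 without single animals). Groups that do not overlap were found for 3.71% of medulla clusters. Nos1, the neuronal nitric oxide synthase, was at -1.07 in medulla (limma adjusted p = 0.151). Ptger4, a prostaglandin E receptor, was at 0.64 (limma adjusted p = 0.214) and Gja5, a gap junction protein, at 0.33 (limma adjusted p = 0.192). Of the 15 genes 7 were above 0 and 8 below, with a median of -0.03. In cortex 13 genes of renin control were tested and 0 passed. Ptgs2 and Nos1 did not pass the filter there, so their lithium effect was not tested within cortex. The Ptgs2 effect in medulla minus that in cortex was -0.89 and did not pass (limma interaction, adjusted p = 0.213). It rests in part on cortex values under the filter. All 8 genes of the thick ascending limb and macula densa list, which also holds Nos1, were below 0 in medulla, and 0 passed. The part of this segment, or of other cells of the medulla, in the Ptgs2 values was not tested, and renin release was not measured.

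Of the 28 genes of AT1 receptor signalling, 24 were tested in cortex and 25 in medulla, and 0 passed in either. For the step after aldosterone, Hsd11b2, which shields the mineralocorticoid receptor from glucocorticoids, was lower in cortex, at 8.95 to 9.56 in lithium-treated rats and 9.93 to 10.41 in control rats (log2 fold change -0.90, SE 0.13, limma adjusted p = 0.0114, and 0.00702 to 0.0525 without single animals). In medulla it was at 1.30 (limma adjusted p = 0.201), and the difference between the tissues was 2.21 (limma interaction, adjusted p = 0.204). Hsd11b2 is known from principal cells. Of 8 principal cell genes tested in cortex, 3 passed as lower and 1 as higher, where 0.574% of all cortex clusters passed. The lower were Aqp2 (water channel, -1.46, adjusted p = 0.00391), Scnn1g (-1.44, adjusted p = 0.0190) and Scnn1b (-0.87, adjusted p = 0.0443, both sodium channel subunits). The higher was Aqp4 (water channel, 2.17, adjusted p = 0.00402, all limma). Without single animals the adjusted p reached 0.0688 for Scnn1g and 0.152 for Scnn1b. The other 4 did not pass, and 7 of the 8 were below 0. The part of principal cells in the Hsd11b2 values was not tested. Of other cells that carry members of the system, Podxl (podocalyxin, of podocytes and endothelium) was at -1.01, Emcn (endomucin, of endothelium) at -0.91, Cd68 at 1.06 and C1qa at 0.95 (both of macrophages), all past the threshold in medulla, with adjusted p up to 0.102, 0.125, 0.122 and 0.123 without single animals. They were the calls among 6 podocyte genes (median 0.0048, 3 of 6 above 0), 8 endothelial genes (median -0.44) and 8 macrophage genes (median 0.79) tested there. The smooth muscle, mesangium and pericyte list (9 tested, median 0.21) and the fibroblast and matrix list (8 tested, median 0.22) had 0. Over all medulla clusters 1.19% passed.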

How the data were processed

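The 24 arrays were deposited by the authors as log2 intensities of 28894 transcript clusters. RMA in Partek (named with rn4 in the submitters' notes) corrected the background, quantiles were matched, probes were summarised by median polish, and an analysis of variance took out scan date. The platform annotation gave 1 symbol to 15097 clusters, more to 323 and none to 13474. The number of arrays limits the precision.

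Within each tissue limma 3.58.1 (R 4.3.3) compared the diets on clusters at 6 or more on 4 of 12 arrays, with Benjamini-Hochberg adjustment and a threshold of 0.05. No source used here gives the dates of the scans. Scan groups were recovered from directions without residual variance and entered the fit as covariates, which left 7 residual degrees of freedom in cortex and 8 in medulla. They are animals 1, 6, 13 and 17, animals 15, 16, 18 and 19, and animals 21, 22, 29 and 30, with animal 17 alone in cortex. The tissue difference was an interaction term without the animal as a block, so the 2 arrays of a rat entered it as independent. Exact permutations exchanged diets within scan groups (108 exchanges in cortex, 216 in medulla, smallest p 0.00926 in both). Fits and scan groups were tested on simulated data. Python 3.11.15, scipy 1.17.1 and pandas 2.3.3 were used. By the labels, the animal number pairs the tissues. Over 11 animals the 2 deviations from the group means correlated at -0.0862 to 0.418, over 0.1 in 5. For 8 of the 11 the highest correlation was with the animal's own medulla array.

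The members and lists were chosen with earlier results of these data known. The text names all members, from each of the 16 lists at most 4 genes past the threshold in a tissue, Mas1 and Agtrap, and for the member with the smallest p in each tissue the 5 genes most like it. Some items of this rule are not reported here. Other list genes (Ctsd, Cltrn, Anpep, Ece1, Nos1, Ptger4, Gja5, Dpp4 and Mep1a) were chosen after their values were seen. Alternatives varied the scan groups, the filter, the normalization, the clusters of a gene, the prior, the test and the animals left out.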

Additional observations from a re-analysis of the deposited data

How the results depend on the processing

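No member was called with limma, nor on leaving out any animal. The methods' t-test at their thresholds (p under 0.05 and fold over 1.5) called 1 member in medulla, Enpep (-0.86), where the methods' analysis of variance with scan groups called none. The exact permutation, unadjusted, gave a p under 0.05 for Enpep (-0.86, p = 0.0463) and Atp6ap2 (0.25, p = 0.00926) in medulla. It was run for the members alone, so no share of all clusters stands beside it. The fit with the animal as a replicate block also drops animal 17, which is alone in its scan group there. In that fit the Agtr1a difference between tissues turned to 0.025. Clusters called in the difference fell to 5 against 15, and no member's call changed. The median difference over all clusters was -0.0206 in that fit and also on leaving out animal 17. Leaving out animal 17 without the block gave 10 clusters called higher and 1 lower, against 5 higher and 0 lower in the block fit. The part of the block itself in these changes was not tested.

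Clusters called in cortex were 79, against 288 without scan groups, 143 and 14 by the methods' analysis of variance at their thresholds and after Benjamini-Hochberg, 163 and 296 by the methods' t-test in the same order, and 34 to 92 leaving out an animal. In medulla they were 190, against 1052, 558, 37, 651 and 650 under the same settings, and 50 without lithium-treated animal 21 to 1053 without lithium-treated animal 6. The medulla split of 133 higher and 57 lower became 101 and 96 with centring on array medians, 533 and 519 without scan groups and 87 and 60 at the stricter filter of 7. Clusters called in the tissue difference were 357 without scan groups, 9 after centring and 5 to 57 leaving out an animal. The cause was not tested.

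Leaving out 1 animal turned the direction of these uncalled values (log2): -0.33 to 0.037 for Agt in medulla, -0.0095 to 0.41 for Ace in medulla, -0.43 to 0.82 for Mme in medulla, -0.46 to 0.14 for Mme in cortex and -0.11 to 0.075 for Atp6ap2 in cortex. For the tissue difference they were -0.44 to 0.15 for Agt, -0.17 to 0.81 for Mme, -0.66 to 0.055 for Agtr1a and -0.14 to 0.068 for Agtr1b. Control animals 29 and 30 set both ends for the medulla fold changes of Agt, Ace and Mme. Enpep stayed between -1.07 and -0.63 in medulla and Atp6ap2 between 0.20 and 0.29, over 12 animals left out. Of the values that kept their sign, Agtr1a ran from -0.91 to -0.17 in medulla (-0.51 with all animals) and from -0.52 to -0.19 in cortex (-0.28), Agtr1b from 0.070 to 0.20 in medulla (0.14) and Enpep from -0.29 to -0.16 in cortex (-0.24). With 6 arrays a diet, the widest interval was that of Mme in medulla.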
